A study of Mus musculus with 12 samples.

Results

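The non-classical MHC class I genes H2-Q4, H2-Q6, H2-Q7, H2-T10, H2-T22, H2-T23, H2-T24 and H2-M3 were followed across 12 mouse tumors. The 8 genes were chosen by symbol, as H2-Q, H2-T and H2-M members, but with earlier results of these data known. All 8 were among the 34678 gene symbols of the tables and among the 15350 symbols with a mean of at least 0.1 FPKM, which were the ones tested. FPKM scales the fragments of a gene to its length in kilobases and to the size of the library, so levels can be compared between genes.

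Tumors were grown in C57BL/6 mice of both sexes, 6 to 8 weeks old, from LLC1-shLkb1 cells. This is a Lewis lung carcinoma line in which a short hairpin RNA lowers Lkb1 (Stk11). The paper grew such tumors under the skin and, in another experiment, in the chest. Its sequencing methods do not name the site, taken here as under the skin. Mice received a control immunoglobulin (the vehicle arm), palbociclib, which inhibits CDK4 and CDK6, an anti-PD-1 antibody, or both agents (the combination arm). The paper collected treated tumors after 2 weeks, without naming those that were sequenced. There were 4 arms of 3 tumors. All arms carried the same knockdown in the same transplanted line, and Stk11 lay between 7.90 and 11.5 FPKM in all 12 tumors. No tumor without the hairpin was analysed here, so the knockdown itself was not checked. The samples are labelled lung adenocarcinoma. Of 10 listed markers of that tissue, Nkx2-1 and Sftpc were the 2 listed at 0 in all 12 tumors. Of the 10, 6 were high enough to be tested: Napsa, Krt8, Krt18, Krt19, Epcam and Cdh1. The rest were above 0 in some tumor but too low to be tested. The epithelial keratin Krt8 ranged from 62.0 to 276 FPKM, and all 10 markers together from 75.8 to 284 FPKM. The level of Krt8 therefore does not stand for the other markers.

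Classical class I molecules display peptides from inside the cell to CD8 T cells. The non-classical molecules share their fold, and most share their light chain β2-microglobulin, but vary less between strains and are read by narrower sets of receptors on NK cells, γδ T cells and unconventional CD8 T cells. Class I genes are induced by interferons, through IRF1 and the class I transactivator NLRC5, and by NF-κB, acting on short elements close to the start of transcription.

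All 8 genes lie on chromosome 17 (GRCm38, GENCODE M21). On the plus strand, H2-Q4 spans 35379617 to 35385290, H2-Q6 spans 35424850 to 35430055, H2-Q7 spans 35439155 to 35443773 and H2-M3 spans 37270220 to 37274484. On the minus strand, H2-T24 spans 36005695 to 36020560, H2-T23 spans 36029773 to 36032855, H2-T22 spans 36037128 to 36042747 and H2-T10, annotated as a polymorphic pseudogene, spans 36115876 to 36121465. Because the family arose by duplication, some reads cannot be placed on 1 gene. Of all 100-base stretches in the annotated exons, 12% in H2-Q7 and 10.8% in H2-Q6 also occurred in another gene, followed by 8.86% in H2-T22 and 7.06% in H2-T10, which share most of these with each other. H2-Q4 shared 2.16% and H2-T23 shared 3.15%, whereas H2-T24 and H2-M3 shared none. H2-Q6 shared most with H2-Q7, and H2-Q7 with H2-Q10 and H2-Q5. Of 150-base stretches, 5.99% in H2-Q6 and 5.90% in H2-Q7 were shared, 0.393% in H2-T10, 0.384% in H2-T22, 0.331% in H2-T23 and none in H2-Q4. The read length and how the authors' counting treated shared reads are not given in the sources used here, so the values of H2-Q6 and H2-Q7, and with short reads those of H2-T10 and H2-T22, are less certain as separate genes.

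The promoters show which regulatory letters the members hold in common. RefSeq promoter sequences (250 bases before to 50 after the start, GRCm38.p6) matched 6 of the 8 genes, all but H2-T10 and H2-T24. The 4 printed here carry the contrast between the member with the clearest palbociclib difference (H2-T22), its neighbor H2-T23, a Qa-2 gene (H2-Q7) and the least different member (H2-M3). Capitals mark 3 elements searched on both strands: the core of the interferon-stimulated response element (ISRE), GAAANNGAAA; the TTTCACTT core of the class I interferon consensus sequence, which was added after the sequences had been read; and the NF-κB consensus. In H2-T22 the first 2 overlap. The window of H2-T22 is chr17:36042693-36042992 (minus strand), that of H2-T23 is chr17:36032652-36032951 (minus strand), that of H2-Q7 is chr17:35438905-35439204 (plus strand) and that of H2-M3 is chr17:37269984-37270283 (plus strand).
H2-T22: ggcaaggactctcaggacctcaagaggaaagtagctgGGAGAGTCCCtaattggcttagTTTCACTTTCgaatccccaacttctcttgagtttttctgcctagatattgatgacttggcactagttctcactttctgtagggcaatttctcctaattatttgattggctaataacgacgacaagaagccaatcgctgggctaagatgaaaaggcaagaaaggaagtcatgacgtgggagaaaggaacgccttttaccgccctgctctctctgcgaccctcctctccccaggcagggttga
H2-T23: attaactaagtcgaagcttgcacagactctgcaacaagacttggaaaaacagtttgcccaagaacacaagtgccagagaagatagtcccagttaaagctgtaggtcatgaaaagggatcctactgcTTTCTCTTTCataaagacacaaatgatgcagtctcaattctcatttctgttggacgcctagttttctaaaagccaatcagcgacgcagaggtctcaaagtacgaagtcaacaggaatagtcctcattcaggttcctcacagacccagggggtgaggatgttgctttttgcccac
H2-Q7: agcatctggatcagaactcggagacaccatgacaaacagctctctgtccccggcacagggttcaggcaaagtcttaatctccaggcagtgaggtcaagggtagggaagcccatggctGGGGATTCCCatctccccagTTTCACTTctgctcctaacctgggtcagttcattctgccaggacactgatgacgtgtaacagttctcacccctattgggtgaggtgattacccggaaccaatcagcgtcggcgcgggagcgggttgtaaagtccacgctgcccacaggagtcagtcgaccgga
H2-M3: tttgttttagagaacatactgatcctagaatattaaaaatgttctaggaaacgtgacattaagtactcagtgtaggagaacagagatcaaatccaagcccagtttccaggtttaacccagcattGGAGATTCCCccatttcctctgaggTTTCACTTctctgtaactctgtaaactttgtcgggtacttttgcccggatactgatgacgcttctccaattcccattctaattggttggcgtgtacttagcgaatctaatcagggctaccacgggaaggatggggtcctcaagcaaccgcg
The ISRE core was present in H2-T22 (bases -191 to -182, minus strand) and H2-T23 (-124 to -115, minus strand), and in 3.44% of all 32851 promoters of this length. The TTTCACTT core stood in 5 of the 6 member promoters, H2-T23 being the exception, and in 1.60% of all promoters. The NF-κB consensus was likewise found in the same 5 and in 8.46% of all promoters. CCAAT, the letters of the Y box core, was present in all 6 members and in 37.4% of promoters. TGACG, the letters of the X2 box core of the element NLRC5 acts on, was matched in H2-Q4, H2-Q7, H2-T22 and H2-M3 and in 20.8% of promoters. In H2-Q7 TGACG (-64 to -60) stood before every CCAAT match, but in H2-T22 (-22 to -18) after all of them. In H2-Q4 it stood at -73 to -69, after the CCAAT match at -79 to -75, and at 31 to 35. Whether any of these short matches is a working X2 box was not tested. The interferon gamma element GAS, TTCNNNGAA, was matched in H2-M3 alone (-209 to -201) and in 8.30% of promoters. These promoters descend from common ancestors and are not independent of each other, and for H2-T23 the RefSeq start lies 154 bases inside the GENCODE gene, so the annotations place its start differently.

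In the vehicle arm H2-Q4 had the highest level of the 8 genes, at 29.4 ± 4.51 FPKM (SD, n = 3), followed by H2-M3 at 19.2 ± 2.203, H2-T22 at 17.1 ± 1.89, H2-T23 at 13.6 ± 1.97, H2-Q6 at 7.13 ± 1.101, H2-Q7 at 3.85 ± 0.726, H2-T10 at 1.54 ± 0.292 and H2-T24 at 1.15 ± 0.511 FPKM. The tumors of H2-M3 and H2-T22 overlapped, as did those of H2-T22 and H2-T23 and those of H2-T10 and H2-T24, so these neighbors in the order were not separated. In the palbociclib arm H2-Q4 remained highest at 54.6 ± 2.24 FPKM (SD, n = 3), and H2-M3 stood behind H2-T22 and H2-T23, all 3 with overlapping neighbors. The classical genes were far higher, with H2-D1 between 373 and 740 FPKM and H2-K1 between 64.6 and 168 FPKM over the 12 tumors. From the FPKM steps, depth was estimated at 14800000 to 20400000 fragments per tumor, which puts about 19735 fragments on H2-Q4 over all tumors but 874 on H2-T24, with as few as 19 in 1 tumor.

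**Figure D1:**
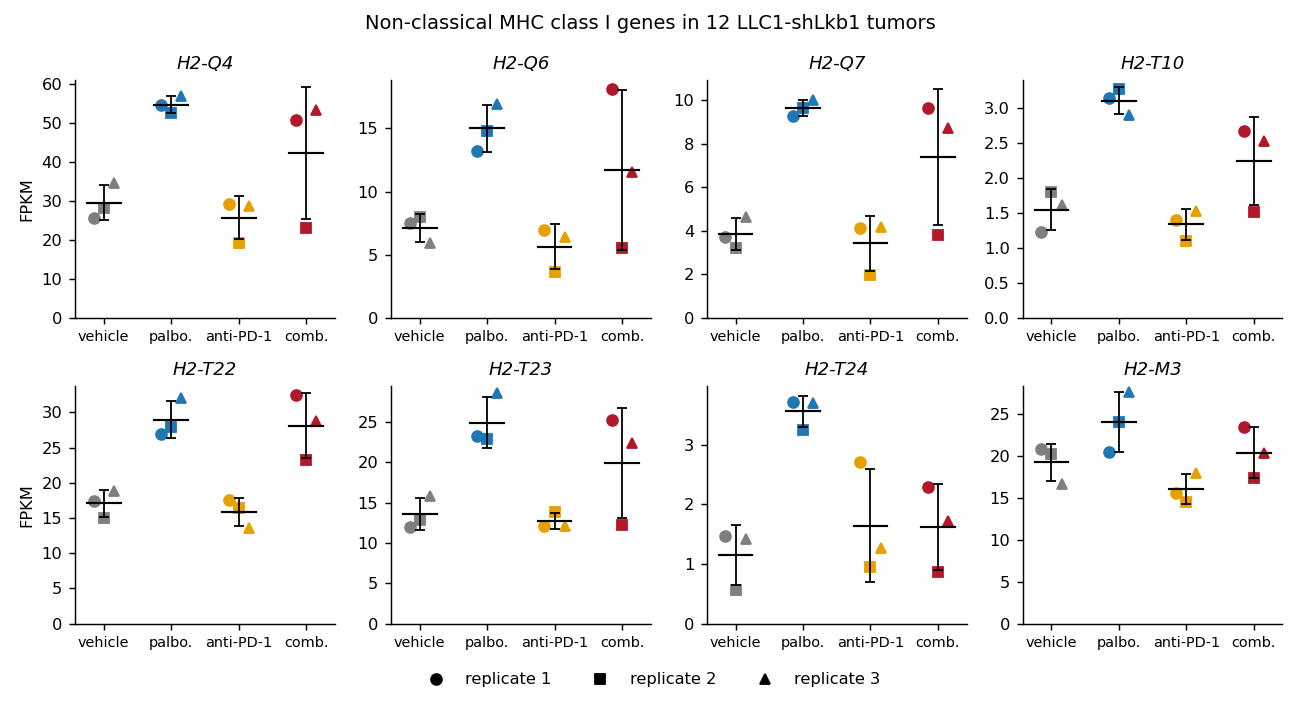
FPKM of the 8 non-classical class I genes (vertical axes, linear from 0) by arm, with 1 point per tumor, a shape per replicate number, and the mean ± SD of 3 tumors in black. Replicate 2 of the combination arm (square) is the lowest of its arm in all 8 panels, and only for H2-T22 do all 3 combination tumors lie above every vehicle and anti-PD-1 tumor.

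The main question was how these genes differed in tumors exposed to palbociclib. The palbociclib effect, the mean of palbociclib minus vehicle and combination minus anti-PD-1 in log2(FPKM + 0.1), was above 0 for all 8 members, with a median of 0.81 against 0.06 over all genes tested. Only H2-T22 rose by the test used (limma, Benjamini-Hochberg adjusted p under 0.05), that is 1 of 8 members beside 0.248% of all genes called higher. At an unadjusted p under 0.05, 8 of 8 members were higher, beside 14.1% of all genes. Median differences of 0.81 stand for less than a doubling, and on this scale the change of the low genes H2-T10 and H2-T24 is slightly understated.

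H2-T22 encodes a ligand that a subset of γδ T cell receptors binds without any peptide. It was at 17.4, 15.1 and 18.8 FPKM in the vehicle tumors, 27.0, 27.9 and 32.0 with palbociclib, 17.5, 16.4 and 13.6 with anti-PD-1, and 32.5, 23.2 and 28.7 with the combination. The 6 tumors exposed to palbociclib all exceeded the 6 others, a separation whose share over all genes was not counted. The palbociclib effect was 0.79 (SE 0.10, limma adjusted p = 0.0339), a 1.73-fold difference, and ranked H2-T22 in place 4 of the 15350 genes by p. The estimate moved only between 0.73 and 0.85 when 1 tumor was left out, but the call was lost in 8 of 12 such fits: adjusted p was 0.0509 without vehicle replicate 2, 0.0558, 0.0502 and 0.0968 without palbociclib replicates 1, 2 and 3, 0.0941 and 0.0980 without anti-PD-1 replicates 2 and 3, and 0.0951 and 0.0664 without combination replicates 1 and 3. It was also lost, at 0.137, without the 2 tumors rich in fat genes. H2-T10, its close homolog and a ligand of the same γδ receptors, had a far lower level. Its values were 1.22, 1.79 and 1.61 FPKM with vehicle, 3.13, 3.28 and 2.90 with palbociclib, 1.39, 1.095 and 1.53 with anti-PD-1, and 2.67, 1.51 and 2.52 with the combination. Here combination replicate 2 fell among the tumors without palbociclib, and the effect of 0.82 (SE 0.16) had an adjusted p of 0.0543.

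H2-T23 encodes the heavy chain of Qa-1, which carries a peptide from the leader of classical class I proteins to the receptor CD94/NKG2A on NK and CD8 T cells. It was at 12.02, 12.8 and 15.8 FPKM with vehicle, 23.2, 22.9 and 28.6 with palbociclib, 12.1, 13.9 and 12.1 with anti-PD-1, and 25.2, 12.2 and 22.4 with the combination. Palbociclib alone was separated from vehicle, whereas 1 combination tumor was as low as the anti-PD-1 tumors. The palbociclib effect was 0.73 (SE 0.16, limma adjusted p = 0.0769). Without combination replicate 2 it was 0.89 and passed the test, with an adjusted p of 0.00582. For H2-T24, whose role is less clear, the vehicle tumors had 1.47, 0.562 and 1.43 FPKM, the palbociclib tumors 3.72, 3.25 and 3.71, the anti-PD-1 tumors 2.72, 0.952 and 1.27, and the combination tumors 2.30, 0.863 and 1.72. The palbociclib tumors were thus above all others, and combination and anti-PD-1 tumors overlapped. The effect over both settings was 0.83 (SE 0.31, adjusted p = 0.179).

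Among the H2-Q genes, H2-Q7 encodes Qa-2, a class I molecule anchored to the membrane by a lipid tail, and H2-Q6 is its neighbor in the Qa-2 region. H2-Q7 was at 3.72, 3.20 and 4.64 FPKM with vehicle, 9.29, 9.67 and 10 with palbociclib, 4.11, 1.96 and 4.18 with anti-PD-1, and 9.63, 3.82 and 8.74 with the combination. It had the largest palbociclib effect of the 8 members, 1.19 (SE 0.25, limma adjusted p = 0.0699), a 2.28-fold difference short of the threshold. H2-Q6 went from 7.54, 7.98 and 5.89 FPKM with vehicle to 13.2, 14.8 and 16.97 with palbociclib, and from 6.96, 3.58 and 6.37 with anti-PD-1 to 18.1, 5.48 and 11.6 with the combination. In both genes the palbociclib tumors stood clear of vehicle and combination replicate 2 did not, and for H2-Q6 the effect was 1.004 (SE 0.26, adjusted p = 0.0951). H2-Q4, which encodes Qb-1, was at 25.7, 28.2 and 34.5 FPKM with vehicle, 54.5, 52.5 and 56.9 with palbociclib, 29.1, 19.2 and 28.6 with anti-PD-1, and 50.6, 22.9 and 53.2 with the combination. Its effect was 0.77 (SE 0.20, adjusted p = 0.0950). Without combination replicate 2, the adjusted p fell to 0.00836 for H2-Q4, 0.0145 for H2-Q6, 0.0101 for H2-Q7 and 0.0101 for H2-T10, so that 6 members in all passed. That tumor was the lowest of its arm in all 8 members, so leaving it out raised their estimates. The share of all genes called in that fit is not given here, so the 6 calls cannot be weighed against it. Without vehicle replicate 1, H2-Q7 (adjusted p = 0.0432) and H2-T10 (0.0367) passed beside H2-T22, and the same 2 genes did so without anti-PD-1 replicate 1 (0.0351 and 0.0347). Calls over all genes moved as well, from 48 with all tumors to between 0 and 758 when 1 tumor was left out. The 758 were called without anti-PD-1 replicate 1, and the count without vehicle replicate 1 is not given here.

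H2-M3, which presents peptides that begin with N-formylmethionine, as bacterial and mitochondrial proteins do, differed least. It was at 20.8, 20.2 and 16.7 FPKM with vehicle, 20.5, 23.99 and 27.7 with palbociclib, 15.55, 14.5 and 17.98 with anti-PD-1, and 23.4, 17.3 and 20.3 with the combination. Tumors with and without palbociclib overlapped, both without and with anti-PD-1. The palbociclib effect was 0.33 (SE 0.10, limma adjusted p = 0.134), with an unadjusted 95% interval from 0.10 to 0.56, and whether H2-M3 differed from the other 7 members was not tested.

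Without anti-PD-1, palbociclib tumors did not overlap vehicle tumors in 7 of 8 members, all but H2-M3, beside 12.9% of all genes. None of the 8 passed the limma test of palbociclib against vehicle (0.143% of all genes did, in either direction), and the same 7 had an unadjusted p under 0.05, beside 9.43% of all genes called higher at that level. The differences ran from 0.32 for H2-M3 to 1.65 (SE 0.44, adjusted p = 0.195) for H2-T24. Without combination replicate 2, which is in neither arm but enters the common estimate of spread, H2-T22 (adjusted p = 0.0482) and H2-T23 (0.0368) passed. That fit called 46 of all genes, beside 22 with all tumors. Under anti-PD-1, 1 of 8 members was free of overlap between combination and anti-PD-1 tumors, H2-T22, beside 11.4% of all genes. The test called none of the 8 (0.00651% of all genes), and 7 of 8, all but H2-T24, had an unadjusted p under 0.05, beside 7.61% of all genes. The differences lay between 0.34 for H2-M3 and 1.06 for H2-Q7, apart from H2-T24 at 0.02 (SE 0.44).

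**Figure D2:**
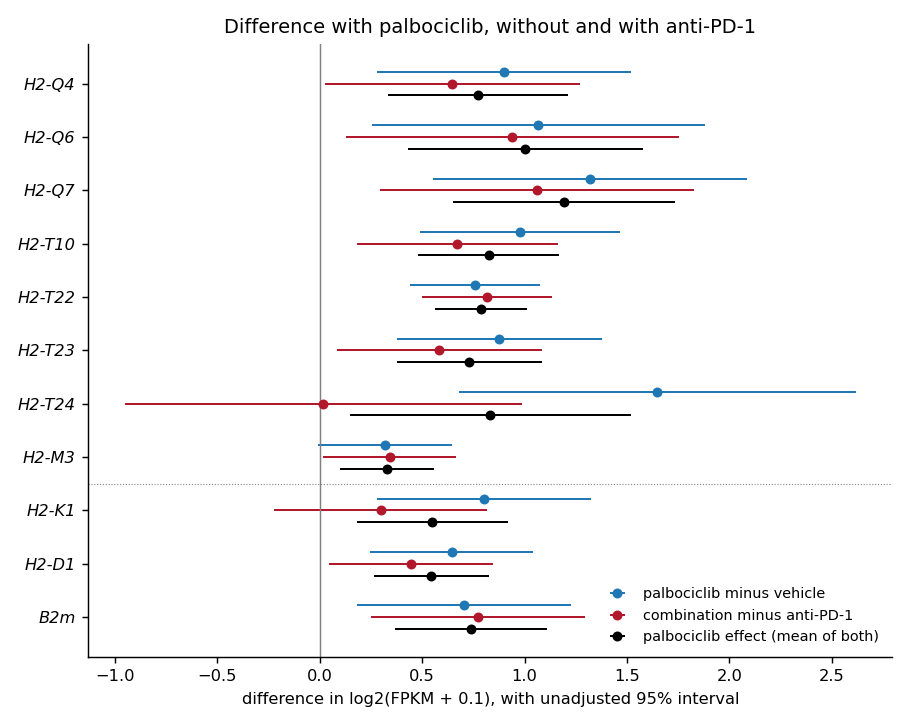
Differences in log2(FPKM + 0.1), horizontal axis, with unadjusted 95% intervals from limma (lines) for palbociclib minus vehicle (blue), combination minus anti-PD-1 (red) and their mean, the palbociclib effect (black). The 8 members are above the dotted line and H2-K1, H2-D1 and B2m below it; for H2-T24 the blue point is at 1.65 and the red one at 0.02, while for H2-T22 they are at 0.76 and 0.82.

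Whether the difference with palbociclib was larger or smaller under anti-PD-1 was tested by the interaction, combination minus anti-PD-1 less palbociclib minus vehicle. No member passed, nor did any gene (0% of 15350), and at an unadjusted p under 0.05 limma listed 1 of the 8 members and 879 of all genes. That member was H2-T24, with an interaction of -1.63 (SE 0.62, unadjusted p = 0.0240, adjusted p = 0.866). The others lay between -0.31 for H2-T10 and 0.06 for H2-T22. The sign of all members but H2-T24 turned under at least 1 alternative. Their intervals were wide, from -0.39 to 0.51 for H2-T22 and from -1.34 to 0.83 for H2-Q7, so that sizable differences in either direction were not detectable.

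Anti-PD-1 alone against vehicle called no member and no gene (0%), with 1289 genes but no member at an unadjusted p under 0.05. The estimates were below 0 for 7 members, from -0.38 for H2-Q6 to -0.08 for H2-T23, and 0.45 for H2-T24. H2-M3 had the smallest unadjusted p, 0.105, at -0.26 (SE 0.15). The combination against vehicle called no member (0.0130% of all genes), and H2-T22 at 0.71 (SE 0.14, unadjusted p = 0.000475, adjusted p = 0.184) and H2-Q7 at 0.83 (SE 0.35, unadjusted p = 0.0360, adjusted p = 0.273) were the 2 members of 8 with an unadjusted p under 0.05, beside 17% of all genes. The combination against palbociclib called none either (0.00651% of all genes). All 8 estimates were below 0. By limma, 2 of 8 had an unadjusted p under 0.05, beside 4.52% of all genes, and an adjusted p of 1, which were H2-T24 at -1.18 (SE 0.44) and H2-T10 at -0.50 (SE 0.22). These comparisons share arms with those above.

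Combination replicate 2 was the lowest of its arm in all 8 members. It lay below all 3 vehicle tumors in H2-Q4 and H2-Q6, within their range in H2-Q7, H2-T10, H2-T23, H2-T24 and H2-M3, and above them only in H2-T22. In the anti-PD-1 arm, replicate 2 was the lowest for H2-Q4, H2-Q6, H2-Q7, H2-T10, H2-T24 and H2-M3, but the highest for H2-T23. Genes of leukocytes also differed between tumors, not all in 1 direction, and whether they moved with the members was not tested. Ptprc, the pan-leukocyte gene CD45, was at 2.11, 1.48 and 1.91 FPKM with vehicle, 2.25, 3.36 and 2.67 with palbociclib, 1.35, 1.19 and 1.44 with anti-PD-1, and 3.21, 0.841 and 2.89 with the combination, the lowest tumor of all being combination replicate 2. Of the 14 leukocyte markers, all were above 0 in some tumor and 13 were tested. In the palbociclib effect, 7 were higher and 2 lower at an unadjusted p under 0.05, beside 14.1% and 6.44% of all genes. None was called, and the effects ran from 1.79 for Cd3g to -2.27 for S100a9, with Ptprc at 0.56 (SE 0.28, limma adjusted p = 0.272). Their summed level was 83.9 to 503 FPKM with vehicle, 76.0 to 110 with palbociclib, 93.8 to 261 with anti-PD-1 and 63.0 to 145 with the combination. The sum weights each gene by its level and need not follow the 7 that were higher. The 2 lower genes were S100a8 (-1.96) and S100a9 (-2.27). In bulk tumors, fewer cells of a type and less RNA per cell cannot be told apart, and the part of leukocytes in the members' values was not tested.

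Genes of host tissues differed between tumors as well. The muscle actin Acta1 was at 90.7 FPKM in palbociclib replicate 3, 83.2 in combination replicate 2 and 24.9 in vehicle replicate 1, the keratinocyte gene Krt14 at 178 in palbociclib replicate 2, and the fat cell gene Cfd at 280 in palbociclib replicate 1 and 668 in combination replicate 1. The 6 muscle markers summed to 0.791 to 52.5 FPKM with vehicle, 1.42 to 149 with palbociclib, 0.729 to 9.73 with anti-PD-1 and 0.859 to 146 with the combination, and all 6 were above 0 in some tumor. The 6 skin markers reached at most 0.0707 FPKM in sum with vehicle and 0.0442 with anti-PD-1, where 5 and 4 of them were listed at 0, and 0.235 to 363 with palbociclib and 0.0556 to 0.910 with the combination. The 6 fat markers summed to 1.24 to 4.39 FPKM with vehicle, 15.7 to 391 with palbociclib, 0.813 to 4.75 with anti-PD-1 and 1.29 to 943 with the combination. No marker of these 3 tissues was called in the palbociclib effect, and the largest differences were 6.96 for Cfd, 2.75 for Krt14 and 2.10 for Acta1. Fibroblast and endothelial markers summed to 159 to 447 FPKM over all tumors, with palbociclib effects from 0.77 for Dcn to -0.73 for Cdh5 and none called. Their part was not tested, but the members were recomputed without tissue-rich tumors: 5 of 8 passed without the 3 tumors rich in muscle genes (H2-Q4, H2-Q7, H2-T10, H2-T22 and H2-T23), and 0 of 8 without the 2 rich in fat genes, with all 8 estimates above 0 in both fits. Over all genes, 154 were called without the muscle-rich tumors and 0 without the fat-rich ones, beside 48 with all tumors.

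**Figure D3:**
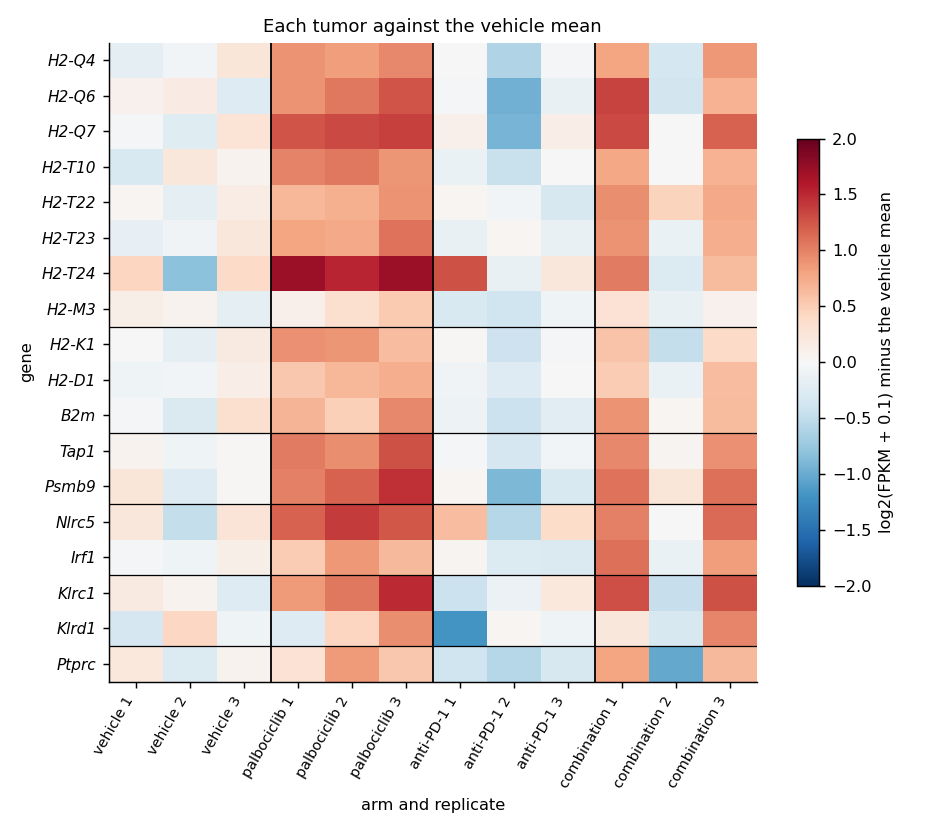
Color gives log2(FPKM + 0.1) of each tumor (columns, by arm and replicate) minus the mean of the 3 vehicle tumors, for the 8 members and, below them, the classical genes with B2m, peptide supply genes, regulators, receptor genes and Ptprc (rows). Palbociclib and combination columns are red for most rows except combination replicate 2, where H2-T22 is the only member clearly above the vehicle mean.

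The classical genes and the light chain gave the nearest yardstick. H2-K1 was at 89.8, 78.5 and 102 FPKM with vehicle, 168, 165 and 137 with palbociclib, 91.1, 67.5 and 88.4 with anti-PD-1, and 133, 64.6 and 117 with the combination. H2-K1, H2-D1 and B2m had palbociclib effects of 0.55 (SE 0.17, limma adjusted p = 0.125), 0.54 (SE 0.13, 0.0836) and 0.74 (SE 0.17, 0.0807). Thus 0 of 3 passed and 3 of 3 were higher at an unadjusted p under 0.05, beside 14.1% of all genes. Measured against the mean log2 of H2-K1 and H2-D1 in the same tumor, only H2-Q7 differed in its palbociclib effect, by 0.64 (SE 0.18, limma adjusted p = 0.01996). In that comparison 39.9% of all genes were called, mostly as lower, since H2-K1 and H2-D1 themselves stood higher under palbociclib, and 1.02% were called higher. The call for H2-Q7 was lost without vehicle replicate 2 (adjusted p = 0.05095), anti-PD-1 replicate 2 (0.0642), combination replicate 1 (0.0565), combination replicate 3 (0.0554) or both fat-rich tumors (0.0952), at estimates of 0.52 to 0.62. Without combination replicate 2, H2-Q4 (0.29, adjusted p = 0.0227) and H2-Q6 (0.55, 0.0172) passed beside it, in a fit that called 72.5% of all genes. The other members were at 0.46 (H2-Q6), 0.29 (H2-T24), 0.28 (H2-T10), 0.24 (H2-T22), 0.23 (H2-Q4), 0.18 (H2-T23) and -0.22 (H2-M3, unadjusted 95% interval -0.58 to 0.15). Together the 8 genes gave 14.8% ± 0.384 (SD, n = 3) of the summed FPKM of members, H2-K1 and H2-D1 with vehicle, 14.2% ± 0.471 with anti-PD-1, 16.1% ± 0.802 with palbociclib and 16.3% ± 1.15 with both agents. The range was 13.9% to 17.6% over the 12 tumors, and the lowest of the 6 tumors exposed to palbociclib, at 15.4%, was above the highest of the others, at 15.03%. How often other sets of genes separate the tumors in this way was not counted.

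**Figure D4:**
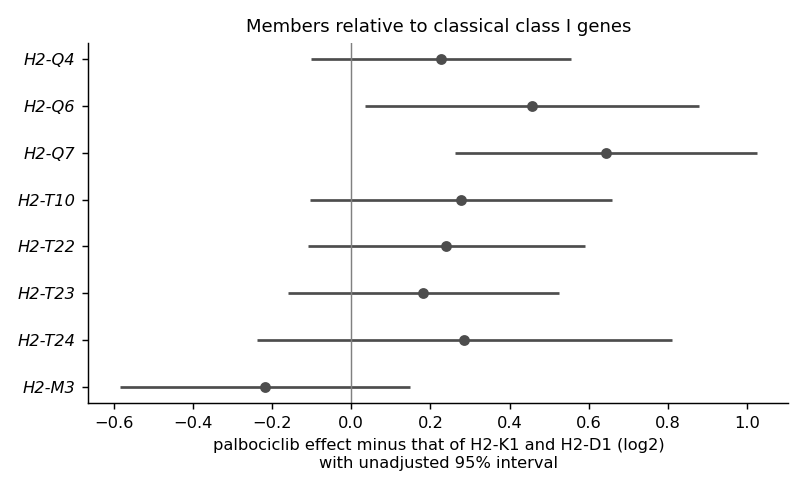
Palbociclib effect of each member minus that of the mean of H2-K1 and H2-D1 (horizontal axis, log2), with unadjusted 95% intervals from limma. H2-Q7, at 0.64, and H2-Q6, at 0.46, are the members whose intervals lie above 0, and H2-M3, at -0.22, is the member with an estimate below 0.

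Class I molecules need peptides, and 3 of 13 genes of peptide supply and loading rose in the palbociclib effect, beside 0.248% of all genes called higher. At an unadjusted p under 0.05, 10 of 13 were higher and none lower, beside 14.1% of all genes higher. Their median was 0.56, against 0.06 over all genes tested. The 3 called were Tap1, which encodes a subunit of the peptide transporter, by 0.94 (limma adjusted p = 0.0399), Psmb9, an immunoproteasome subunit, by 1.204 (0.0399), and the peptide-loading bridge Tapbp, 1.64-fold (0.0339). Tap1 was at 7.06, 6.33 and 6.88 FPKM with vehicle, 14.0, 12.99 and 16.5 with palbociclib, 6.57, 5.31 and 6.50 with anti-PD-1, and 13.2, 7.04 and 12.8 with the combination. As in most members, combination replicate 2 had a value near vehicle. The largest estimate of the list was Psmb10, at 1.26 (adjusted p = 0.0536), and the smallest was the chaperone Canx, at -0.06. In 7 of the 22 alternatives no gene at all was called in the palbociclib effect, so that these 3 calls and those of the lists that follow were lost too. They were the fit without a trend, the one without the fat-rich tumors, and those without vehicle replicate 2, palbociclib replicate 3, anti-PD-1 replicate 2, anti-PD-1 replicate 3 or combination replicate 1.

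Among the genes of class I transcription and interferon signalling, Nlrc5 was at 5.72, 3.45 and 5.82 FPKM with vehicle, 11.2, 12.99 and 11.7 with palbociclib, 7.496, 3.24 and 6.29 with anti-PD-1, and 9.85, 4.83 and 10.8 with the combination. The palbociclib tumors stood clear of vehicle and combination replicate 2 did not. Its effect was 0.93 (SE 0.25, limma adjusted p = 0.102) and that of Irf1 was 0.73 (SE 0.18, adjusted p = 0.0885), while Jak1 was smallest at -0.14. Of 15 interferon-induced genes 5 rose, beside 0.248% of all genes called higher: Ifit2 by 0.85, and the GTPase genes Gbp2 by 1.79, Gbp3 by 1.46, Igtp by 1.54 and Irgm1 by 1.15 (limma adjusted p = 0.0339 to 0.0462). All 15 were higher at an unadjusted p under 0.05, beside 14.1% of all genes, with a median of 1.04 against 0.06 over all genes tested. The largest estimate was Cxcl9, at 2.83 (adjusted p = 0.0846), and the smallest Rsad2, at 0.57 (adjusted p = 0.231). The mean over both settings covers unequal parts: Rsad2 differed by 1.39 between palbociclib and vehicle but by -0.25 between combination and anti-PD-1, and Gbp2 by 1.84 and 1.73. In the interaction 9 of the 15 genes were lower at an unadjusted p under 0.05, beside 3.34% of all genes. The same 9 were lower in combination against palbociclib, beside 3.47% of all genes, and none was called in either. Both comparisons use the combination and palbociclib arms, so the second count is not separate from the first.

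On the receptor side, 0 of 9 tested genes (11 listed) were called by limma. At an unadjusted p under 0.05, 5 of 9 were higher, beside 14.1% of all genes. Their median effect was 0.82, against 0.06 over all genes tested. Klrc1 and Klrd1 encode NKG2A and CD94, the receptor pair for Qa-1. Klrc1 was at 0.539, 0.492 and 0.374 FPKM with vehicle, 0.912, 1.07 and 1.49 with palbociclib, 0.317, 0.418 and 0.553 with anti-PD-1, and 1.28, 0.309 and 1.26 with the combination. The palbociclib tumors stood clear of vehicle, as for H2-T23, and combination replicate 2 was the lowest of all 12, and the effect of 0.97 (SE 0.30) had an adjusted p of 0.125. Klrd1 overlapped between all arms and was at 0.54 (SE 0.31, adjusted p = 0.334). The largest effect of the list was that of the CD8 chain gene Cd8b1, at 1.79 (adjusted p = 0.114), and the smallest that of Lilrb4a, at 0.01. Trdc, the constant gene of the γδ receptor δ chain, stayed at or under 0.418 FPKM in all tumors, with an effect of 0.73 (SE 0.38, adjusted p = 0.295).

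The rest of the family was low or sparse. Of 20 other H2-Q, H2-T and H2-M genes listed, 17 were in the tables, 3 were tested and none was called by limma. At an unadjusted p under 0.05, 1 was higher and 1 lower, beside 14.1% and 6.44% of all genes. The largest was H2-Q5, at 1.56, 2.31 and 2.18 FPKM with vehicle, 6.44, 4.89 and 6.30 with palbociclib, 2.83, 1.29 and 3.09 with anti-PD-1, and 4.61, 1.46 and 4.40 with the combination, an effect of 0.98 (SE 0.30, adjusted p = 0.125), and H2-M9 was at -0.85 (adjusted p = 0.236). H2-M1, H2-M10.3 and H2-M10.6 were listed at 0 in all 12 tumors. Among 6 tested class I-like genes outside the complex none was called and 2 had an unadjusted p under 0.05, beside 20.5% of all genes in either direction. Fcgrt, the neonatal Fc receptor, was largest at 0.75 (adjusted p = 0.112) and Mr1, which presents vitamin metabolites to MAIT cells, smallest at -0.07. Of 3 tested ligands of the activating receptor NKG2D none was called and none had an unadjusted p under 0.05, from 0.18 for Ulbp1 to 0.02 for Raet1e.

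The members were compared with 11186 genes of at least 1 FPKM on average by Pearson's r of log2(FPKM + 0.1), over all 12 tumors and after subtracting arm means. All points share their libraries, and r over 12 tumors also carries the differences between arms, so the values are a description. H2-Q4 was most like H2-D1 (r = 0.98 over 12 tumors, 0.96 with arm means subtracted). H2-Q7 followed H2-Q4 (0.97 and 0.95) and H2-T23 followed H2-D1 (0.95), C920025E04Rik (0.95) and Tap1 (0.95). H2-T22 stood with the interferon-induced GTPase genes Igtp (0.95) and Irgm2 (0.95) and the proteasome activator homolog Psme2b (0.95), and H2-T24 with Slfn5 (0.97), Trim30c (0.94) and Slfn1 (0.94). H2-T10 was closest to C920025E04Rik (0.97) and H2-Q6 to Fgl2 (0.95). C920025E04Rik was also near H2-Q4 (0.96) and H2-Q6 (0.94). H2-M3 was nearest to the adhesion molecule gene Vcam1 (0.93), the cathepsin gene Ctso (0.93) and Fcgrt (0.90). With arm means subtracted the nearest genes were H2-D1 for H2-Q4 (0.96), Gimap6 for H2-Q6 (0.96), Dock4 for H2-Q7 (0.95), Atp6v1h for H2-T10 (0.91), Lsm8 for H2-T22 (0.93), Wtap for H2-T23 (0.92), Samhd1 for H2-T24 (0.99) and Ctso for H2-M3 (0.91). Within the family, r with arm means subtracted ran from 0.23 between H2-T24 and H2-M3 to 0.95 between H2-Q4 and H2-Q7. For H2-T10 with H2-T22, which share some exon sequence, r was 0.24 with arm means subtracted and 0.82 over the 12 tumors. Neither value shows how shared reads were counted.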

How the data were processed

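RNA from 12 tumors was sequenced, and the authors deposited 1 table of FPKM per tumor. The submitters' processing notes name HISAT2 and the builds GRCm38 and mm10. The counting tool, annotation and strand setting are not given in the sources used here. Each table held 34745 entries, of which 67 repeated a symbol and were dropped by keeping the entry with the highest mean. No member was affected. Depth was estimated from the steps of low FPKM values and is firmer between tumors than in absolute terms.

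Symbols with a mean of at least 0.1 FPKM entered limma 3.58.1 (R 4.3.3) as log2(FPKM + 0.1), with 1 mean per arm, all 12 tumors and a trend in eBayes, and p-values were adjusted by Benjamini-Hochberg over all 15350 at a threshold of 0.05. On data simulated for the palbociclib effect where 200 of 15350 genes had a true log2 difference of 1, 153 were recovered with 11 false calls. The simulated noise was independent between genes, so it held none of the shifts that many genes of 1 tumor share. It therefore does not give the recovery or the false calls to be had in these tumors. Positions come from GENCODE M21 and promoters from RefSeq. Python 3.11.15, pandas 2.3.3 and matplotlib 3.10.9 were used.

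The members and gene lists were chosen with earlier results of these data known. Named are all 8 members, H2-K1, H2-D1, B2m, Nlrc5, Irf1, Tap1, Klrc1, Klrd1 and Stk11, every listed gene called in the palbociclib effect except 1 item that is not reported here, and the genes with the largest and smallest effect of each list. Ptprc, Trdc, Acta1, Krt14 and Cfd values per tumor were chosen after they were seen. Alternatives were pseudocounts of 1 and 0.01, a filter at 1 FPKM or none, TPM rescaling, quantile normalization, no trend, only the arms compared, a replicate block, leaving out each tumor, and, chosen after seeing the data, leaving out muscle-rich tumors (vehicle 1, palbociclib 3, combination 2) or fat-rich tumors (palbociclib 1, combination 1). Tumors came from different mice, and the labels do not say whether they were processed in batches.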

Additional observations from a re-analysis of the deposited data

How the results depend on the processing

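In all 176 refits of the 8 palbociclib effects (22 alternatives), the estimate stayed above 0, and the median of all genes stayed between -0.03 (quantile normalization) and 0.07. The number of members called in the palbociclib effect, 1 as reported, was 2 with a filter at 1 FPKM, 0 without a trend, 2 with the replicate block, 5 without the muscle-rich and 0 without the fat-rich tumors, and 0 to 6 over the leave-one-out fits. For palbociclib against vehicle it was 0 as reported, 1 with the replicate block (H2-T24, adjusted p = 0.0489) and 0 to 2 leaving out 1 tumor. Relative to H2-K1 and H2-D1 it was 1 as reported, 2 without the muscle-rich and 0 without the fat-rich tumors, and 0 to 3 leaving out 1 tumor. Counts over all genes moved more: the 48 calls of the palbociclib effect became 0 without a trend, 11 without a filter, 129 with the block, 154 and 0 without the muscle-rich and fat-rich tumors, and 0 to 758 leaving out 1 tumor. The 22 calls of palbociclib against vehicle became 0 with only the 2 arms compared, 1 with quantile normalization, 6 without a trend, 51 with the block, 0 and 4 without muscle-rich and fat-rich tumors, and 1 to 46 leaving out 1 tumor. The 6132 calls relative to H2-K1 and H2-D1 became 10568 with a pseudocount of 1, 10262 and 415 without the muscle-rich and fat-rich tumors, and 1108 to 11135 leaving out 1 tumor. The other comparisons had 0 to 7 calls under any alternative. The cause of these moves was not tested. Of 1448 refits of member differences 39 changed sign, none of them of a called difference. For H2-T24 in combination against anti-PD-1 (0.02), the values were -0.0132 after TPM rescaling, -0.0799 after quantile normalization, -0.27 without the fat-rich tumors, and -0.28 to 0.43 leaving out 1 tumor. In the interaction, without the muscle-rich tumors, the values were 0.26 (H2-Q4), 0.38 (H2-Q6), 0.20 (H2-Q7), 0.0436 (H2-T10) and 0.21 (H2-T23), and without the fat-rich tumors -0.10 (H2-T22) and -0.19 (H2-M3, -0.0006 after TPM rescaling). Leaving out 1 tumor, it ran from -0.47 to 0.14 (H2-Q4), -0.52 to 0.34 (H2-Q6), -0.60 to 0.16 (H2-Q7), -0.0520 to 0.19 (H2-T22), -0.49 to 0.0225 (H2-T23) and -0.0870 to 0.13 (H2-M3). In combination against palbociclib, without the muscle-rich tumors, H2-Q6 was at 0.0493, H2-T22 at 0.15 and H2-T23 at 0.0409, with H2-T22 at -0.16 to 0.08 leaving out 1 tumor. In combination against vehicle, H2-M3 was at -0.0262 without the fat-rich tumors and at -0.03 to 0.19 leaving out 1 tumor, and in anti-PD-1 against vehicle H2-Q7 and H2-T23 ran from -0.41 to 0.12 and from -0.17 to 0.0290.

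The replicate numbers are shared between arms, but nothing in the labels ties same-numbered tumors together. Deviations from the arm means correlated at -0.26 to 0.52 between same-numbered tumors (median 0.01, 18 pairs) and at -0.45 to 0.37 between others (median -0.03, 36 pairs), so the numbers were not treated as pairs. With the replicate block H2-Q7 passed in the palbociclib effect (adjusted p = 0.0292) beside H2-T22, and with the filter at 1 FPKM H2-T10 did (0.0494). Without a trend H2-T22 had an adjusted p of 0.0543.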
